A study of Drosophila melanogaster with 24 samples.

Results

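A set of 95 transcripts, out of 16637 measured in whole female Drosophila melanogaster, was chosen by measured values: the difference between 2 diets was larger in flies given the drug RU486 than in flies not given it. Of these, 29 were higher on DR, dietary restriction, in flies given RU486 and are called rising members, and 66 were lower and are called falling members. A transcript's value was the mean log2 brightness of its probes, and a group's value was the median of its 6 arrays. The diet difference, DR minus AL, had to be at least 0.6 log2 in size with RU486 and under 0.8 without it. The size with RU486 had to exceed the size without it by at least 0.3, and the mean over all 24 arrays had to be above 8, which 12134 transcripts met. Members made up 0.571% of all transcripts, with rising members at 0.174% and falling members at 0.397%, and the same rule turned round, for a diet response smaller with RU486, held for 763.

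The 24 arrays were single-colour NimbleGen arrays, each hybridised with the RNA of its own pool, made of about 35 females at an age of 13 days. Flies given RU486 were kept on DR or on AL, and flies not given it likewise, which makes 4 groups of 6 pools. DR food was given for 10 days. The labels do not spell out AL, which is used as the name of the other diet. Every group, the one without drug on AL included, is labelled with the genotype +/+; Act5c-GS-Gal4/+; P{GD3482}v8105 /+. The series' design text calls AL without RU486 wild type, although its strain label carries both transgenes. The driver is under Act5c control, and no flies given RU486 lacked the insertion, so what the drug does by itself and what it does through the transgene cannot be told apart. In whole flies, fewer cells of a type and less RNA per cell cannot be told apart either.

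As background, GeneSwitch is a Gal4 fused to a hormone receptor domain that binds RU486, so that the driver turns on its target transgene when flies eat the drug. The insertion belongs to a collection of RNA interference lines. From general knowledge and not from the labels, it targets ACC, acetyl-CoA carboxylase, which makes malonyl-CoA for fatty acid synthesis. Dietary restriction is known in flies for longer life, lower egg laying and a shift in lipid turnover, and the title places fatty acid synthesis and breakdown in that response. None of the 95 members had a gene symbol in the RefSeq table used here, against 16 transcripts with 1 symbol and 28 with several among all 16637. Members are therefore given by FlyBase transcript number, without a gene name or a function.

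Between 12945 and 14350 transcripts per array were above background, set by random probes. The number differed by group, with 13611 to 14229 on DR with RU486 and 12945 to 13496 on AL with RU486. Without RU486 it was 14113 to 14350 on DR and 13158 to 13766 on AL. Of the members, 90 were above background on all 24 arrays, 27 rising and 63 falling. Those below it on some array were FBtr0080237 (none of the 6 arrays of AL with RU486 above), FBtr0075620 (4 of 6 there), and FBtr0082691, FBtr0085612 and FBtr0089560 (each 5 of 6 on DR with RU486, and FBtr0085612 also on DR without RU486). Arrays were compared by the SD of all transcripts' deviations from the group median. It was 0.419 log2 for pool 1 of AL with RU486, against 0.0879 to 0.120 for the other 5 pools, and 0.255 for pool 3 of DR with RU486, against 0.112 to 0.171. Without these 2 arrays 25 of the 29 rising and 52 of the 66 falling members still met the rule. In all, 39 rising and 61 falling transcripts met it then, 14 and 9 of them new. Mean levels over 24 arrays lay between 8.27 and 11.35 log2 for rising members (median 9.26) and between 8.06 and 14.15 for falling members (median 10.06). Within a group the arrays of a rising member had a median SD of 0.192 log2 and those of a falling member one of 0.219, against 0.155 over all transcripts with a mean above 8.

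Because the rule used the diet differences, the values of this paragraph describe the set and support nothing. Rising members had a diet difference with RU486 of 0.62 to 1.88 log2 (median 0.92) and without it of 0.03 to 0.80 (median 0.48). Falling members had one with RU486 of −1.35 to −0.60 (median −0.77) and without it of −0.80 to 0.20 (median −0.30). Without the drug the group medians of 92 of the 95 members thus differed between diets in the same direction, by less. In 21 members the response without RU486 was under 0.2 log2 in size, 3 of them rising and 18 falling. For 3 falling members it had the opposite sign: FBtr0088315 had −0.78 with RU486 and 0.11 without, FBtr0088259 had −0.64 and 0.18, and FBtr0100109 had −0.62 and 0.20. No rising member had opposite signs.

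**Figure D1:**
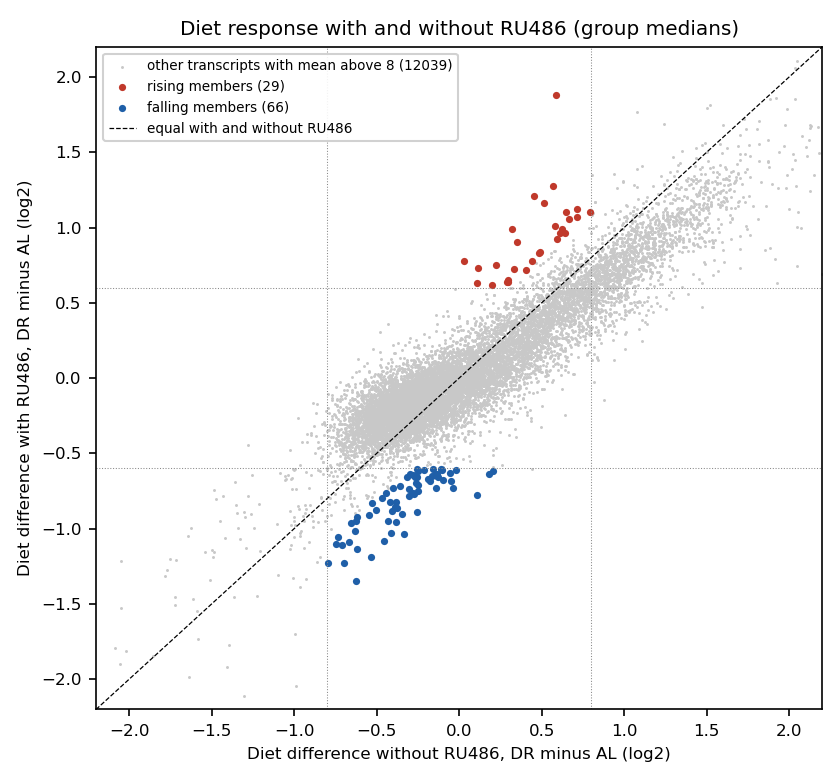
Diet difference (DR minus AL, group medians, log2) of each transcript with RU486 on the vertical axis and without RU486 on the horizontal axis. Rising members lie between 0.62 and 1.88 and falling members between −1.35 and −0.60 on the vertical axis, beyond the diagonal of equal responses. Transcripts outside the drawn range of the axes are not shown.

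Every one of the 6 DR arrays with RU486 was above every one of the 6 AL arrays with RU486 for 26 of the 29 rising members, where such separation held for 14.1% of all transcripts. For 42 of the 66 falling members every DR array with RU486 was below every AL array with RU486, against 10.9% of all transcripts. Without RU486 the diets were separated for 14 rising members (24.0% of all transcripts were separated in that direction) and 12 falling members (24.2%). In limma, all 29 rising members passed as higher on DR with RU486 after Benjamini-Hochberg adjustment, beside 24.5% of all transcripts, and 63 of the 66 falling members passed as lower, beside 24.3% (48.8% in either direction). Without RU486, 23 rising members passed as higher (29.7% of all) and 38 falling members passed as lower (35.5%, and 65.3% in either direction). The interaction, the diet difference with RU486 minus that without it, passed for 10 rising members above 0 (3.33% of all transcripts) and 27 falling members below 0 (3.19%, and 6.52% in either direction). The remaining 58 members met the rule on group medians without passing the interaction test. Nothing is read from these shares, since the rule chose on the same contrasts.

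The rising member with the largest gap between both responses was FBtr0080237. Its levels, as the lowest, the median and the highest of 6 arrays, were 8.81, 9.14 and 9.82 log2 on DR with RU486 and 7.11, 7.27 and 7.47 on AL with RU486. Without RU486 they were 8.87, 9.65 and 10.00 on DR and 8.73, 9.06 and 9.27 on AL. The low group was AL with RU486, which lay below each of the other 3 groups with no overlap, while the diets overlapped without the drug. On none of the 6 arrays of AL with RU486 was the transcript above background, so that group has only an upper bound. With background in its place, FBtr0080237 was at least 3.11-fold higher on DR than on AL with RU486, and on AL it was at least 2.78-fold lower with RU486 than without it.

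The 8 probes of FBtr0080237 fell into a dim and a bright set. The first 3, in the order of their identifiers, had mean levels of 6.89, 7.16 and 7.68 log2 and diet differences with RU486 of 0.04, 0.28 and 0.51. They lay near background: the 95th percentile of single random probes was 7.81 to 8.44 by array, and none of the 3 was above it on more than 2 of the 6 arrays of any group. The other 5 had mean levels of 9.49 to 9.87 and were above it on every array except those of AL with RU486, where they were above it on none. Their diet difference with RU486 was 2.62 to 2.89 log2 as measured, and at least 1.996 to 2.39 with that background in place of AL with RU486. Without RU486 it was 0.77 to 1.04. The value of the transcript thus averages 3 probes near background with 5 brighter ones.

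FBtr0070490 had 10.61, 10.96 and 11.19 log2 on DR with RU486 and 9.57, 9.75 and 9.83 on AL with RU486. Without RU486 it had 8.71, 8.92 and 9.03 on DR and 8.37, 8.47 and 8.49 on AL. No 2 of the 4 groups overlapped, and both groups given RU486 lay above both groups not given it. Its diet difference was 2.32-fold with RU486 and 1.37-fold without. In FBtr0078099 the only high group was DR with RU486, at 9.23, 9.95 and 10.15 log2, against 8.86, 9.17 and 9.38 on AL with RU486. Levels without RU486 were 9.12, 9.36 and 9.85 on DR and 9.16, 9.34 and 9.50 on AL. The arrays of all 4 groups overlapped in FBtr0078099, in spite of a difference of 0.78 between the diet medians with RU486. With RU486 the overlap of the diets lay in DR pool 3, at 9.23, which stands apart. The other DR arrays with RU486 ran from 9.71 to 10.15, above all AL arrays with RU486.

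The brightest rising member, FBtr0081829, had 11.78, 11.96 and 12.002 log2 on DR with RU486 and 9.99, 10.68 and 11.11 on AL with RU486. Levels without RU486 were 11.35, 11.66 and 12.36 on DR and 10.85, 11.09 and 11.56 on AL. Only with RU486 were its diets apart. In FBtr0075620 the levels were 8.02, 8.64 and 9.56 on DR with RU486 and 7.50, 7.64 and 7.86 on AL with RU486, where 4 of 6 arrays were above background. Without RU486 they were 8.26, 9.07 and 9.82 on DR and 8.32, 8.76 and 8.95 on AL. AL with RU486 was again the low group, apart from AL without RU486 and from DR with RU486. FBtr0071403 was also lowest on AL with RU486, with 10.24, 10.67 and 10.94 on DR with RU486, 9.25, 9.51 and 10.08 on AL with RU486, 10.61, 10.97 and 11.27 on DR without RU486 and 10.36, 10.45 and 10.85 on AL without RU486. Here too AL with RU486 did not overlap AL without RU486 or DR with RU486.

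**Figure D2:**
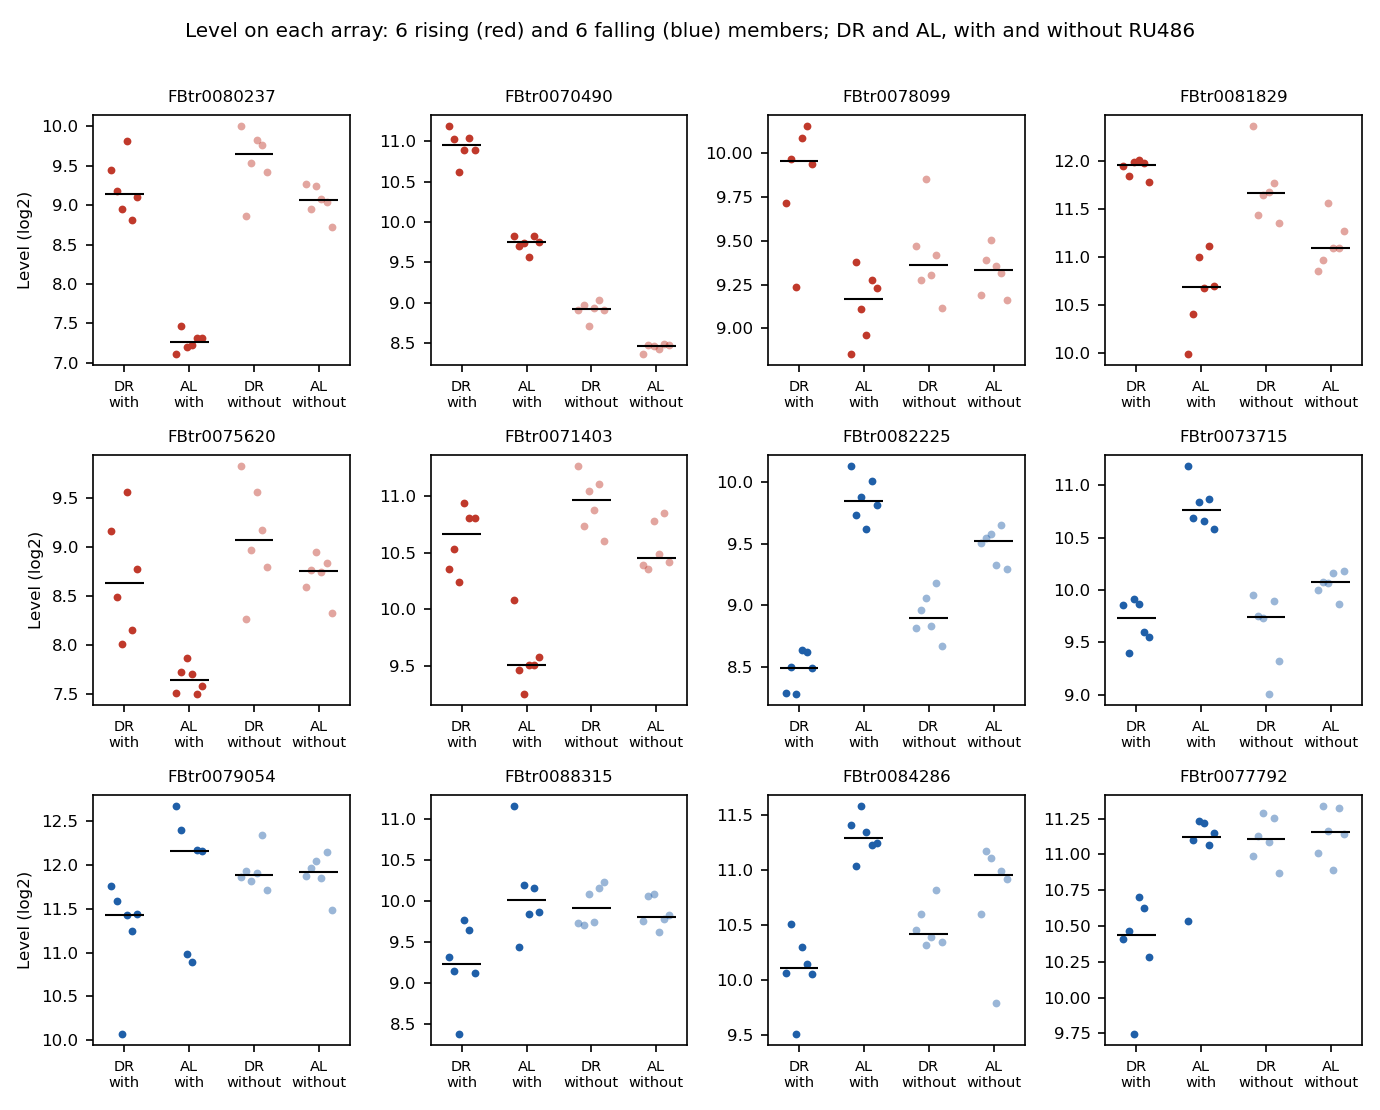
Log2 level of 6 rising and 6 falling members on each array (points) with the group median (line), for DR and AL with RU486 and then DR and AL without it. FBtr0080237 is lowest on AL with RU486 (median 7.27), FBtr0070490 is higher in both groups given RU486 (medians 10.96 and 9.75, against 8.92 and 8.47), and FBtr0082225 is lowest on DR with RU486 (median 8.50).

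Among the falling members FBtr0082225 had the largest diet difference and the largest gap. It had 8.28, 8.50 and 8.64 log2 on DR with RU486 and 9.62, 9.85 and 10.13 on AL with RU486. Without RU486 it had 8.68, 8.90 and 9.18 on DR and 9.29, 9.53 and 9.65 on AL. The diets were apart with and without the drug, and DR with RU486 lay below every other array. FBtr0073715 had 9.40, 9.73 and 9.91 on DR with RU486 and 10.58, 10.76 and 11.18 on AL with RU486. Its levels without RU486 were 9.01, 9.74 and 9.96 on DR and 9.87, 10.07 and 10.19 on AL. In this member the group that stood out was AL with RU486, above every other array, while both DR groups had nearly the same median.

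FBtr0084286 had 9.51, 10.11 and 10.51 log2 on DR with RU486 and 11.04, 11.30 and 11.59 on AL with RU486. Its levels without RU486 were 10.32, 10.42 and 10.82 on DR and 9.79, 10.96 and 11.18 on AL. The diets were apart with RU486 and overlapped without it, where 1 AL array lay below all DR arrays. FBtr0077792 had 9.75, 10.44 and 10.70 on DR with RU486 and 10.53, 11.12 and 11.23 on AL with RU486. Without RU486 it had 10.87, 11.11 and 11.29 on DR and 10.89, 11.15 and 11.34 on AL. The 3 groups other than DR with RU486 thus shared 1 level, and DR with RU486 lay below DR without RU486 on every array.

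FBtr0079054 and FBtr0088315 showed how the medians can part while the arrays overlap. FBtr0079054 had 10.07, 11.43 and 11.76 log2 on DR with RU486 and 10.90, 12.16 and 12.67 on AL with RU486. Without RU486 it had 11.71, 11.89 and 12.35 on DR and 11.48, 11.92 and 12.15 on AL. Its lowest value, 10.07, was on DR with RU486 pool 3, which stands apart. The overlap lay in AL with RU486 pools 3 and 4, at 10.99 and 10.90, while the other AL pools with RU486 were at 12.16 or above. Its diet difference with RU486 did not pass (adjusted p = 0.054 in limma). FBtr0088315 had 8.39, 9.23 and 9.76 on DR with RU486 and 9.44, 10.01 and 11.15 on AL with RU486, against 9.71, 9.91 and 10.23 on DR without RU486 and 9.62, 9.80 and 10.09 on AL without RU486. The extremes of FBtr0088315 were on the 2 arrays that stand apart, 8.39 on DR with RU486 pool 3 and 11.15 on AL with RU486 pool 1. The other 5 arrays ran from 9.13 to 9.76 on DR with RU486 and from 9.44 to 10.19 on AL with RU486.

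The wider response can come from a shift on AL, on DR or on both, and the members differed in this. Where the diet differences with and without RU486 have the same sign, the rule's gap is made up of these shifts. The values of this paragraph therefore describe the choice and support nothing, and the shares over all transcripts were not counted. Among rising members the median RU486 difference, with minus without, had a median of 0.14 log2 on DR and −0.25 on AL. Among falling members it had a median of −0.25 on DR and 0.23 on AL. By medians alone, the shift on AL was the larger one in 17 rising and 29 falling members. The shift on DR was larger in 12 rising and 37 falling members. Many shifts were small against the spread between pools. In limma the RU486 difference on AL did not pass in 21 rising and 64 falling members, and that on DR in 18 and 44. Both shifts widened the response in 17 rising and 59 falling members. In 8 rising and 5 falling members the AL shift widened it while the DR shift narrowed it, as in FBtr0080237 and FBtr0071403. In 4 rising and 2 falling members the DR shift widened it while the AL shift narrowed it, as in FBtr0070490 and FBtr0086700.

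**Figure D3:**
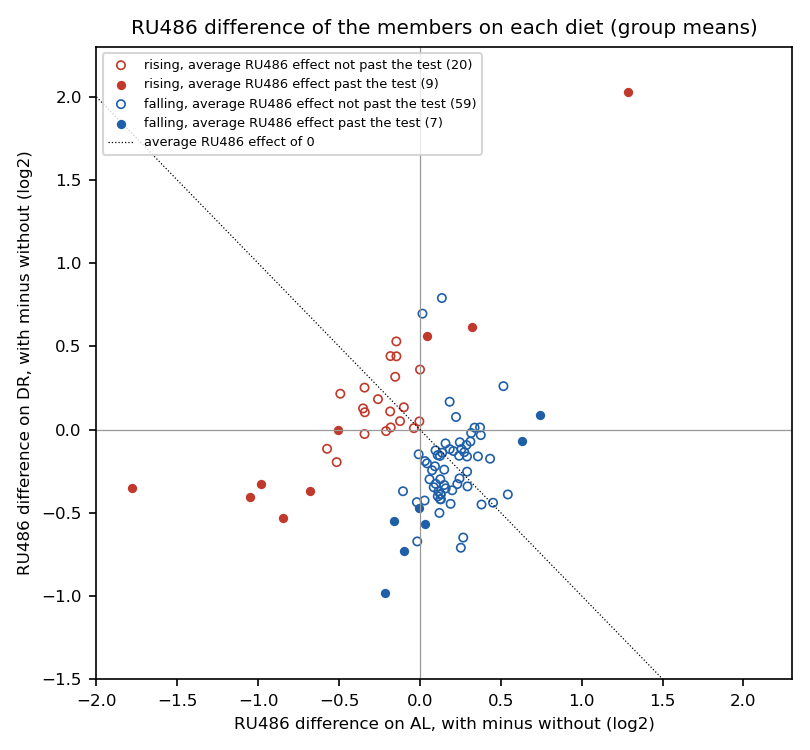
RU486 difference (with minus without, group means, log2) of each member on DR and on AL, for rising and falling members. FBtr0070490 lies far out with RU486 differences above 0 on both diets, and FBtr0080237 lies lowest on AL, at its measured value, which is below background.

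The average RU486 effect, the mean of the RU486 differences on DR and on AL, is the contrast of the 4 groups that the rule did not use. Its error is statistically independent of that of both diet differences where the groups have equal spread. This holds only approximately because AL with RU486 pool 1 spread more. The rule's gap also requires an RU486 difference on at least 1 diet, and a shift on 1 diet moves the average too. The choice thus favours members with an average effect, so no excess over all transcripts is read from the shares below. Pools were separate samples by their labels, so p-values measure the spread between pools. In limma, 9 of the 29 rising members (31.0%) passed it, 3 higher and 6 lower with RU486, and 7 of the 66 falling members (10.6%) passed, 2 higher and 5 lower. Over all 16637 transcripts 2.73% passed, 0.715% higher and 2.01% lower, and among those with a mean above 8 the share was 3.17%. The median average effect was −0.05 log2 over the rising and −0.04 over the falling members, against 0.001 over all transcripts. Most members, 79 of 95, did not pass. Without the 2 arrays that stand apart, 10 rising and 6 falling members passed, and 750 of all transcripts in place of 454.

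The largest average RU486 effect among members was that of FBtr0070490, at 1.66 ± 0.05 log2 (SE, adjusted p = 9.6e-18 in limma), with all 12 arrays given RU486 above all 12 others. Each of its 8 probes was higher with RU486, by 0.54 to 2.05 log2. FBtr0082657 was higher with RU486 by 0.47 ± 0.07 (adjusted p = 0.00047 in limma), with medians of 9.67 on DR and 9.03 on AL with RU486, against 9.07 on DR and 8.78 on AL without it. FBtr0083849 was higher by 0.30 ± 0.05 (adjusted p = 0.00097 in limma), and its medians were 8.89 with and 8.31 without RU486 on DR and 7.99 with and 7.96 without it on AL. The rule's gap places the larger rise on DR for a rising member higher with RU486. Where the rise lies is thus no separate result.

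Lower with RU486 among the rising members was first FBtr0080237, at −1.07 ± 0.11 log2 as measured (SE, adjusted p = 1.6e-06 in limma), or at least 1.88-fold with the background in place of AL with RU486. FBtr0075748 differed by −0.69 ± 0.07 (adjusted p = 7.6e-07 in limma), with medians of 8.90 with and 9.43 without RU486 on DR and of 8.18 with and 9.10 without it on AL. On both diets its arrays with and without the drug were apart. FBtr0075620 differed by −0.73 ± 0.16 (adjusted p = 0.010 in limma), FBtr0071403 by −0.66 ± 0.10 (adjusted p = 0.00028), FBtr0082648 by −0.53 ± 0.07 (adjusted p = 0.00011) and FBtr0075384 by −0.26 ± 0.05 (adjusted p = 0.0071). In these 5 transcripts and in FBtr0080237 the RU486 difference of medians was larger on AL, from −0.42 in FBtr0075384 to −1.80, as measured, in FBtr0080237, than on DR. The rule's gap sets this for a rising member whose average effect is below 0, so it is no separate result.

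Of the falling members, FBtr0073715 was higher with RU486 by 0.42 ± 0.09 log2 (SE, adjusted p = 0.012 in limma) and FBtr0081835 by 0.28 ± 0.07 (adjusted p = 0.018). The median of FBtr0081835 was 10.05 with and 9.51 without RU486 on AL and 8.91 with and 8.88 without it on DR. With the opposite sign, FBtr0086700 differed by −0.60 ± 0.09 (adjusted p = 0.00047 in limma). Its medians were 10.79 with and 11.72 without RU486 on DR and 11.56 with and 11.99 without it on AL. FBtr0077792 differed by −0.41 ± 0.09 (adjusted p = 0.013 in limma), FBtr0110944 by −0.35 ± 0.08 (adjusted p = 0.011) and FBtr0073821, the brightest member, by −0.24 ± 0.04 (adjusted p = 0.00054). For a falling member with an average effect below 0 the rule's gap places the larger drop on DR. With an average effect above 0 it places the larger rise on AL, so where the shift lies is no separate result.

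FBtr0081540 passed narrowly, at −0.27 ± 0.07 log2 (SE, adjusted p = 0.049 in limma). That call was lost under 4 of the 7 other ways of processing (adjusted p = 0.057 to 0.12 in limma) and when any of 19 of the 24 arrays was left out (adjusted p = 0.050 to 0.091). FBtr0070758 and FBtr0071560 had 0.18 ± 0.06 and 0.19 ± 0.06 and did not pass (adjusted p = 0.13 and 0.10 in limma).

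Averaging over the members shows what each array contributed. The mean level over the 29 rising members had a lowest, median and highest array of 9.70, 9.93 and 10.15 log2 on DR with RU486 and of 8.91, 9.01 and 9.07 on AL with RU486. Without RU486 it had 9.61, 9.78 and 10.01 on DR and 9.24, 9.27 and 9.48 on AL. The AL groups with and without the drug were apart, and the DR groups overlapped. For the 66 falling members the mean level was 9.62, 9.79 and 10.05 on DR with RU486, 10.46, 10.57 and 10.67 on AL with RU486, 9.88, 10.06 and 10.22 on DR without RU486 and 10.29, 10.37 and 10.58 on AL without RU486. Here the groups with and without the drug overlapped on both diets. The rule fixes the order of the diets with RU486 and the wider difference there, so the positions of these means support nothing.

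**Figure D4:**
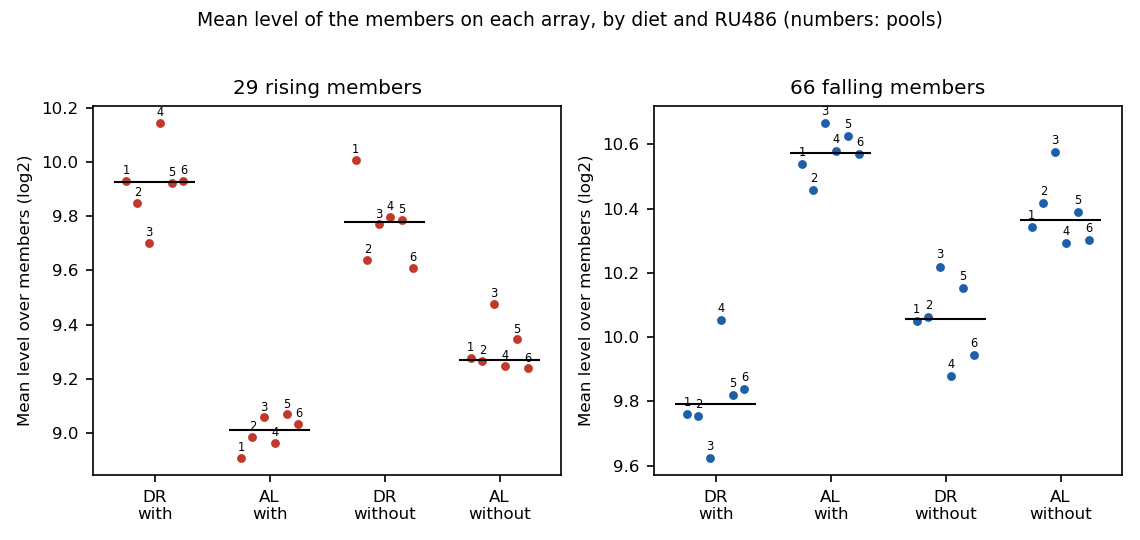
Mean log2 level over the 29 rising and the 66 falling members on each array (points), with the group median (line), for the 4 groups of 6 pools. AL with RU486 is lowest for rising members (8.91 to 9.07) and highest for falling members (10.46 to 10.67).

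Each member was measured by 8 probes, and the probes of a transcript share its RNA and its arrays. The rule chose members on the mean of these same probes, so their agreement in direction and widening describes the choice and supports nothing. The shares over the probes of all transcripts were not counted. All 8 probes had the diet difference with RU486 in the member's direction in 27 of 29 rising and 63 of 66 falling members, or 230 of 232 and 525 of 528 probes. The diet difference was also taken with its sign, counted positive in the member's direction. It was then larger with than without RU486 in 211 of 232 probes of rising members and 484 of 528 of falling members. At least 6 of 8 probes showed this in 28 rising and 63 falling members, and all 8 in 14 and 35. In 1 rising and 7 falling members fewer than 4 probes reached a diet difference of 0.6 with RU486. FBtr0079054 was one of these, with 3 probes past 0.6 and a range of −1.11 to −0.25. FBtr0082225 had all 8 past it, from −1.55 to −0.97.

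**Figure D5:**
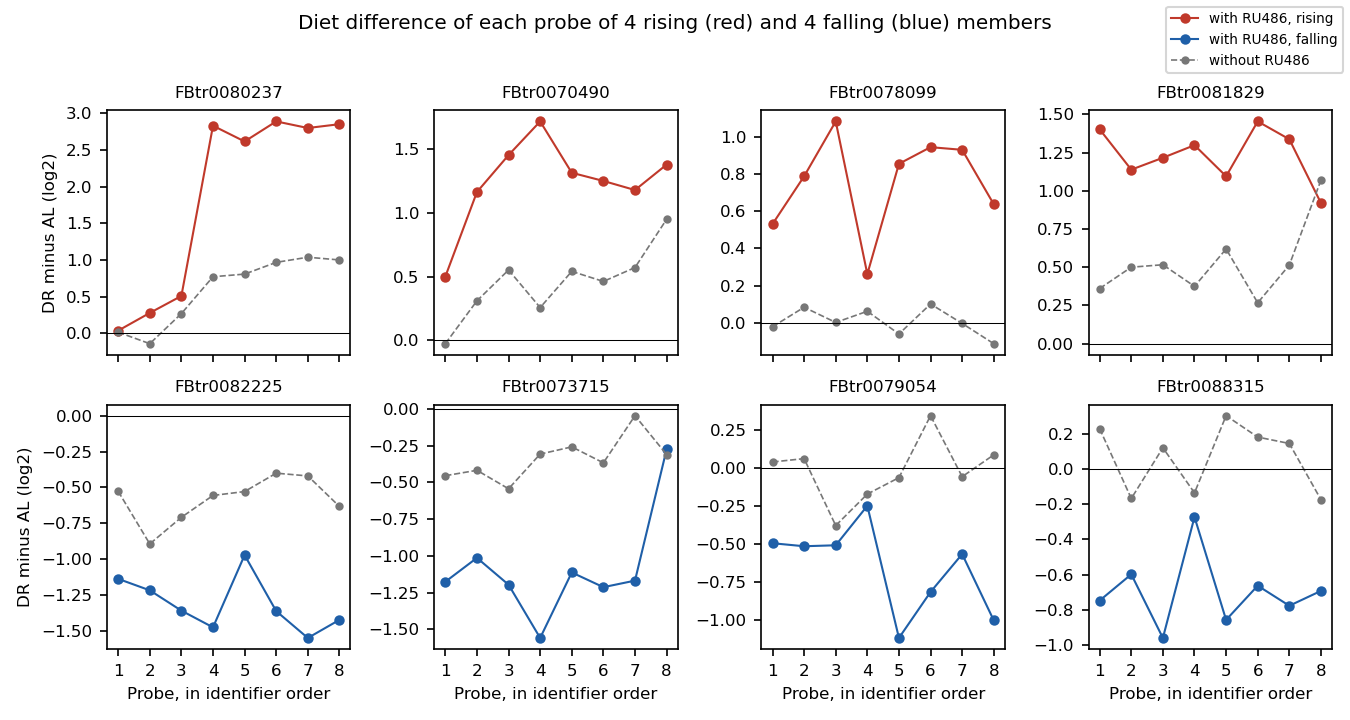
Diet difference (DR minus AL, group medians, log2) of each probe with and without RU486, in the order of the probe identifiers, for 4 rising and 4 falling members. In FBtr0080237 the first 3 probes, near background, have measured differences with RU486 of 0.04 to 0.51 and the other 5 of 2.62 to 2.89, with AL with RU486 below background.

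Some members had neighbouring transcript numbers. There were 9 pairs whose numbers differed by at most 3, which held 15 members, and both transcripts of each pair moved in the same direction. They included FBtr0073713, FBtr0073714 and FBtr0073715, with diet differences with RU486 of −0.75, −0.96 and −1.04 log2, and FBtr0084285 and FBtr0084286, with −1.03 and −1.19. The only rising pair was FBtr0080128 and FBtr0080130, with 1.13 and 0.92. Whether such pairs belong to 1 gene or share probe targets is unknown here, so neighbours are not counted as separate evidence. FBtr0085612 and FBtr0085614 were low on DR by their medians, but DR with RU486 pool 4 was high in both, at 11.56 and 11.31, and AL without RU486 pool 3 at 10.99 and 10.40. Their group means therefore gave an interaction above 0, unlike the other 64 falling members.

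The thresholds cut through a continuous range. Nearest inside the limit on the size with RU486 were FBtr0075384, rising with 0.616, and FBtr0077849, falling with a size of 0.604, and nearest outside were FBtr0072637 with 0.592 and FBtr0290201 with 0.595. For the size without RU486 the values were 0.795 in FBtr0075753 inside and 0.803 in FBtr0087676 outside among rising transcripts, and 0.797 in FBtr0077550 and 0.805 in FBtr0085426 among falling ones. For the gap they were 0.306 in FBtr0075753 and 0.2997 in FBtr0084606, and 0.302 in FBtr0085614 and 0.296 in FBtr0079042. For the mean level they were 8.27 in FBtr0083849 and 7.88 in FBtr0081619, and 8.06 in FBtr0089560 and 7.79 in FBtr0083985. The gap alone kept out 261 rising and 69 falling transcripts that met the other limits.

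Membership depended on single arrays for part of the set. When each of the 24 arrays was left out in turn, 17 rising and 41 falling members met the rule every time, among them each of the 12 members described by array above. The least stable were FBtr0075753, FBtr0085614 and FBtr0076946, which met it in 12 of the 24 cases. With group means in place of medians, 20 rising and 46 falling members were kept, and 30 and 68 transcripts met the rule.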

How the data were processed

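The authors deposited 1 value per probe and array on a log2 scale, a base taken from the range of 6.09 to 16.51. The table held 137090 probes, 4091 of them random control probes. Per the submitters' processing notes limma was used, no version given, and background correction, normalization, array build and slide are not given in the sources used here. The deposited values were used as they stand. Probes sharing the first 11 characters of their identifier were averaged, which gave 16637 transcripts, 16617 of them with 8 probes. Background was, on each array, the 95th percentile of means of 8 random probes, taken over 511 such sets. The number of arrays limits the precision.

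The members, the rule and the tests were chosen with earlier results of these data known. The model, run in R 4.3.3 with limma 3.58.1, held 4 group means over 24 arrays (lmFit, then eBayes). Adjustment was by Benjamini-Hochberg across the 16637 transcripts, with a threshold of 0.05. The fit was tested on simulated data. Members named were, in each direction, the 12 with the largest gap, the 3 with the largest diet difference with RU486, the 3 brightest, those past the average RU486 effect and those nearest to each threshold; the first 6 by gap are given by array. Members outside it, named for opposite signs, neighbouring numbers or stability, were picked after their values were seen. Alternatives were the median over probes, array centring, quantile normalization, background filters, array weights, a block for pool number, group means in the rule, and leaving out arrays.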

Additional observations from a re-analysis of the deposited data

Results flagged for a closer look

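Single arrays stood far from the other 5 of their group in 18 of the 164 groups tested, 4 for each of 41 named members. The nominal rate of the test is about 1 in 20. The groups tested share the same arrays, so they are not separate cases, and the share over all transcripts was not counted. No excess in the members is therefore read from this count. FBtr0085612 had 11.56 log2 on DR with RU486 pool 4, against 7.58 to 8.94 in the other pools, and 10.99 on AL without RU486 pool 3, against 8.13 to 9.0001. FBtr0085614, with a neighbouring number, had 11.31 and 10.40 on the same 2 arrays, against 7.75 to 8.52 and 8.12 to 8.79. On AL with RU486 pool 1, FBtr0080384 had 11.64 (others 10.00 to 10.37), FBtr0077849 had 10.75 (others 9.66 to 10.02) and FBtr0077792 had 10.53 (others 11.06 to 11.23). On DR with RU486 pool 3, FBtr0079054 had 10.07 (others 11.25 to 11.76) and FBtr0070758 had 9.53 (others 9.85 to 9.96). Also on DR with RU486, FBtr0110944 had 9.06 in pool 4 (others 8.65 to 8.76) and FBtr0085025 had 12.13 in pool 2 (others 12.49 to 12.64). FBtr0071560 had 8.56 on AL with RU486 pool 3 (others 8.39 to 8.45).

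On DR without RU486, pool 3 held 12.30 for FBtr0085463 (others 11.79 to 11.97) and 10.74 for FBtr0077550 (others 9.50 to 9.96). Pool 5 held 12.35 for FBtr0079054 (others 11.71 to 11.93) and 8.83 for FBtr0089560 (others 7.66 to 7.90). Pool 6 held 9.79 for FBtr0070758 (others 9.37 to 9.47), and pool 1 held 8.87 for FBtr0077849 (others 9.36 to 9.61).

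The diet effect differed between flies with and without RU486 by the limma interaction test in 10 rising and 27 falling members. The rule chose members by that difference, so these counts describe the choice.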

How the results depend on the processing

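The number of rising members past the average RU486 effect was 9 to 11 and that of falling members 6 to 8 under every alternative run. Over all transcripts 454 passed, 750 without both arrays that stood apart, 1235 with array weights, and 305 to 845 when 1 array was left out, the highest without AL with RU486 pool 1. The rule gave 21 to 40 rising and 58 to 78 falling members with 1 array left out, 33 and 53 after quantile normalization (18 and 43 shared with the deposited scaling), 33 and 77 after centring (23 and 55 shared) and 40 and 87 with the median over probes (20 and 52 shared). Of the members, 8 rising and 25 falling met it in all of these and with group means and without the 2 arrays. No pairing of the arrays by pool number was seen. Same-numbered arrays of different groups had a median r of −0.0297 between deviations over 36 pairs, with a range of −0.312 to 0.251. Of the 24 arrays, 1 correlated best with its own number. With pool number as a replicate block, 9 rising and 8 falling members and 336 of all transcripts passed.

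Among 41 named members under 31 alternatives the average RU486 effect changed sign in 28 of 1271 cases, in 9 members, none past the threshold on either side. The changed values were, for FBtr0075753, 0.00169 after centring, 0.00582 after quantile normalization, 0.0773 with array weights and 0.0272 without the 2 arrays. For FBtr0080384 they were −0.0710 with array weights and −0.0756 without the 2 arrays. Array weights gave 0.0425 for FBtr0077550 and −0.00175 for FBtr0077849, the median over probes gave 0.00166 for FBtr0079725 and −0.0263 for FBtr0085331, and FBtr0084285 had 0.00729 without the 2 arrays. With 1 array left out the effect ran from −0.0451 to 0.0191 for FBtr0075753, −0.129 to 0.0263 for FBtr0077550, −0.00571 to 0.103 for FBtr0077849, −0.102 to 0.0617 for FBtr0080384, −0.0606 to 0.0294 for FBtr0084285, −0.0210 to 0.135 for FBtr0084286, −0.00828 to 0.0482 for FBtr0085331 and −0.117 to 0.000765 for FBtr0089560. The cause of these changes was not tested. Calls changed in 3 members: FBtr0081540 was lost as given above, FBtr0070758 passed under 3 alternatives (adjusted p = 0.016 to 0.047 in limma), and FBtr0071560 under 2 (0.034 and 0.037) and with 1 array left out (0.026).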
